A study of Mus musculus with 23 samples.

Results

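The HL1002P effect in muscle was set against the HL1002P effect in fat, gene by gene. The quantity described is the log2 fold change of HL1002P over WT in gastrocnemius, a hind limb muscle, minus the log2 fold change of HL1002P over WT in fat. A positive value means that the muscle effect lay above the fat effect. It was taken from 16 of the 23 libraries of the series: 4 HL1002P and 4 WT libraries of muscle, and 4 HL1002P and 4 WT libraries of fat. The other 7 libraries carry another genotype and were left out of the fit. Of 24062 genes in the deposited table, the 11816 that averaged 1 CPM or more (CPM are read counts scaled to the library's total) in both muscle and fat were tested. HL1002P mice carry the hypomorphic H allele of Bub1b on one chromosome and the L1002P allele on the other, and WT mice carry neither. All were mice of a mixed 129Sve/C57BL/6 background, taken at 8 to 10 months of age, and no drug or diet is named in the labels. Both are germline alleles, so both tissues of an HL1002P mouse carry them. The fat depot is given as IAT, which the labels do not spell out. The replicates are labelled as separate samples, but no label states which libraries came from the same mouse, so the p-values measure the spread between these samples.

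Bub1b, on chromosome 2 at 118598202 to 118641592 (GRCm38), encodes BubR1, a kinase-like protein of the spindle assembly checkpoint. BubR1 holds back anaphase until all chromosomes are attached to the spindle, and its loss gives cells with wrong chromosome numbers. In people, mutations on both copies of the gene cause mosaic variegated aneuploidy syndrome. Mice with too little BubR1 age early, with wasting of skeletal muscle and loss of fat among the known features. Adult muscle is built of myofibres that no longer divide, whereas fat holds many dividing stromal and immune cells beside its adipocytes, and the interaction of genotype and tissue asks which genes answer differently in the 2 settings.

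The effects of HL1002P differed between the tissues for 2080 of the 11816 genes (edgeR quasi-likelihood test of the interaction, Benjamini-Hochberg adjusted p under 0.05), which is 17.6% of the genes tested. The muscle effect lay above the fat effect for 1022 genes (8.65%) and below it for 1058 (8.95%). Of the 2080 genes, 1959 (94.2%) had the larger absolute fold change in fat and 121 (5.82%) had it in muscle. In the same fit 8 genes passed the HL1002P against WT test in muscle (0.0677% of genes), 5 of them higher (0.0423%) and 3 lower (0.0254%), and 5333 passed it in fat (45.1%), 22.6% of genes higher and 22.5% lower. The median absolute log2 fold change was 0.13 in muscle and 0.42 in fat, with a median SE of 0.18 in both. The joint fit gave both tissues a shared estimate of each gene's spread, so the SE does not show which tissue varied more. At an unadjusted p under 0.05 the counts were 915 genes in muscle (7.74%), 6362 in fat (53.8%) and 4359 for the interaction (36.9%). Estimated apart, the common biological coefficient of variation, a measure of spread between libraries, was 0.203 in muscle and 0.315 in fat. With the 8 libraries of each tissue fitted alone, 7 genes passed in muscle (1241 unadjusted) and 3784 in fat (5606 unadjusted). Muscle and fat fold changes correlated weakly across genes (Pearson r = 0.14, Spearman rho = 0.09, n = 11816 genes, which are not independent replicates and share each library's depth). The smallest adjusted p of the interaction was 0.0117 and was shared by 51 genes, and the fold changes below are given with their SE.

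**Figure D1:**
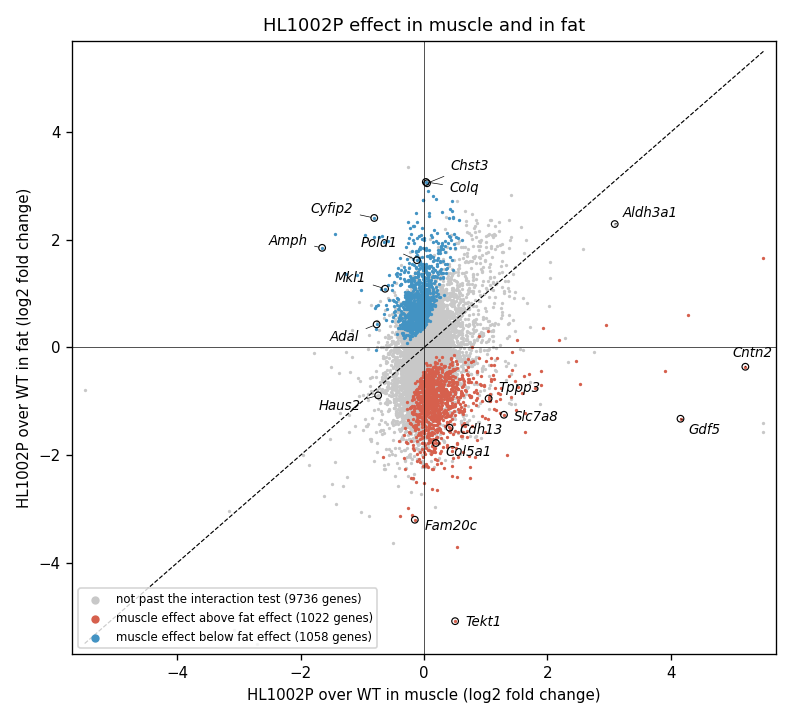
Log2 fold change of HL1002P over WT in muscle (x axis) and in fat (y axis) for the 11816 genes tested, with genes past the interaction test in colour, equal effects on the dashed line and values beyond the frame drawn at its edge. The cloud is tall and narrow: the median absolute fold change was 0.42 in fat and 0.13 in muscle.

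The libraries' cell type markers were compared before single genes. Myofibre markers (25 genes) summed to 321140 to 416400 CPM in the 8 muscle libraries, and adipocyte markers (16 genes) to 13801 to 26176 CPM in HL1002P fat and 23925 to 43454 CPM in WT fat, so both labelled tissues carried their defining markers. In muscle the sums of both lists overlapped between the genotypes. B cell markers (16 genes, none at 0 in fat) summed to 3224, 3281, 2984 and 1174 CPM in HL1002P fat, against 132, 611, 485 and 342 CPM in WT fat. T cell markers (20 genes) summed to 1298, 1477, 1452 and 687 CPM in HL1002P fat, against 101, 332, 348 and 367 CPM in WT fat. The genotypes did not overlap for either list in fat, whereas in muscle B cell markers summed to 16 to 24.9 CPM in HL1002P and 12.7 to 20.5 CPM in WT libraries. Lymph node stroma markers (14 genes, 1 at 0 in fat) summed to 1370 to 1688 CPM in HL1002P fat and 705 to 856 CPM in WT fat, also without overlap. In muscle they summed to 225 to 272 CPM in HL1002P and 192 to 248 CPM in WT. Of the 7 tested, 3 were negative and 2 positive in the interaction, a share of 71.4% beside 17.6% of all genes. Fibroblast markers (15 genes) lay at 5522 to 11976 CPM in HL1002P fat and 10930 to 18902 CPM in WT fat. In whole tissue, fewer cells of a type and less RNA per cell cannot be told apart.

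Some fat libraries held RNA of other tissues. Myofibre markers reached 5492 CPM in HL1002P fat replicate 4 and 14510 CPM in WT fat replicate 3, and stayed at 214 to 409 CPM in the other HL1002P and 316 to 1441 CPM in the other WT fat libraries. Markers of mammary and skin epithelium (16 genes) summed to 1001 CPM in HL1002P fat replicate 4 and to 1615 and 1513 CPM in WT fat replicates 3 and 4, the fat libraries with Xist, and to 8.02 to 101 CPM in the fat libraries with Y-linked transcripts. HL1002P muscle replicate 1 also stood apart, with 258 CPM of the same list against 34.4 to 44.0 CPM in the other HL1002P and 24.4 to 27.2 CPM in the WT muscle libraries. Members under the expression filter, from a fit with a filter by group, included Krt5 (-4.72 ± 9.73 in muscle), Krt14 (0.07 ± 7.34), Epcam (-1.46 ± 2.81) and Elf5 (-1.17 ± 4.49). Lor (0.60 ± 1.14) and Lalba (0.93 ± 1.57) were also under it. The 258 CPM therefore rest on part of the list and do not show that epithelial RNA was present. The part of these fat and muscle libraries in the results was not tested beyond the fits without them, given below.

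**Figure D2:**
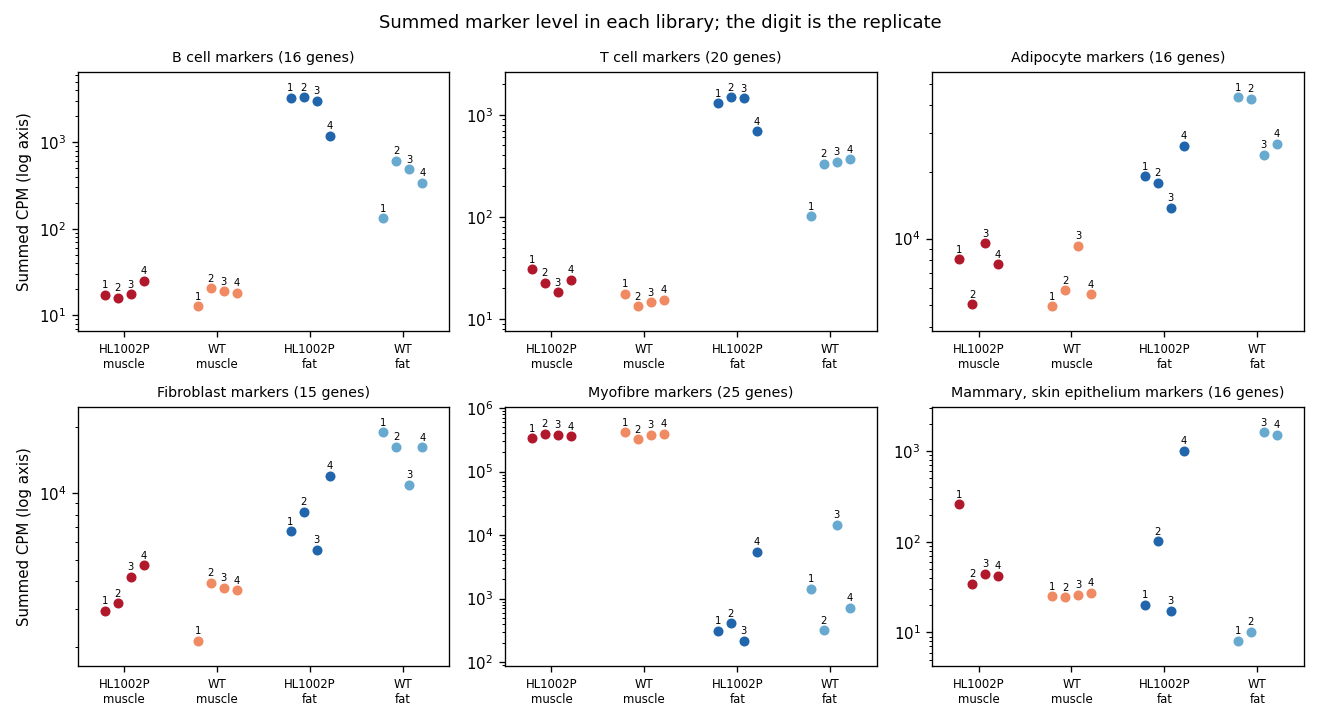
Summed CPM of 6 marker lists (log axis) in each library, with HL1002P left of WT in each tissue and the replicate number beside each point. B and T cell markers lie higher in all 4 HL1002P fat libraries than in the WT fat libraries, and myofibre markers are high in HL1002P fat replicate 4 and WT fat replicate 3.

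The number of genes past the interaction test depended on the libraries in the fit. It was 1363 without HL1002P muscle replicate 1, 1039 without HL1002P muscle replicate 3, 1071 without HL1002P muscle replicate 4, and 1018, 1217 and 1095 without WT muscle replicates 1, 3 and 4. It was 577, 511 and 705 without HL1002P fat replicates 1, 2 and 3, 4284 without HL1002P fat replicate 4, and 636 and 1188 without WT fat replicates 1 and 2. Without both HL1002P fat replicate 4 and WT fat replicate 3 it was 4875, and 2074 of the 2080 genes stayed past the test with the same sign. In this fit and the 16 fits with 1 library left out, between 88.3% and 97.0% of the called genes had the larger effect in fat, and none of the 2080 genes changed sign. With the mean log2 level of the B and T cell markers as a covariate in each tissue, 0 genes passed (edgeR, 221 at an unadjusted p under 0.05), and the fat effect passed for 0 genes (234 unadjusted). The covariate did not overlap between the genotypes in fat, at 5.30 to 6.52 in HL1002P and 1.85 to 4.30 in WT libraries, so the genotype and the lymphocyte marker level cannot be told apart in fat.

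Every same-numbered HL1002P and WT pair of muscle libraries correlated at 0.12 or more. HL1002P replicates 2 and 4 correlated better with WT replicates 1 and 3, so the number is not shown to mark pairs. With the replicate number as a block in muscle 957 genes passed the interaction test and 5 the muscle test. Among the 8 genes of the muscle test Aldh3a1, Ccndbp1, Hypk and Mfap1a stayed past it, whereas Haus2 and Gm14085 (adjusted p = 0.056 each), Adal and Fam174b (0.114 each) did not. The interaction calls of Cntn2, Igfbp2, Gadd45a, Cd36, Plin2, Plin4, Pgd, Foxo1, Igf2, Igf2r, Peg3, Itga7, Cenpa, Zwint, Bag3, Rpl8, Rps3 and Thbs4 were also lost in this fit, with their signs kept. In this fit 9 collagen, 13 elastic fibre, 8 DNA replication, 2 denervation and 2 heat shock genes passed.

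**Figure D3:**
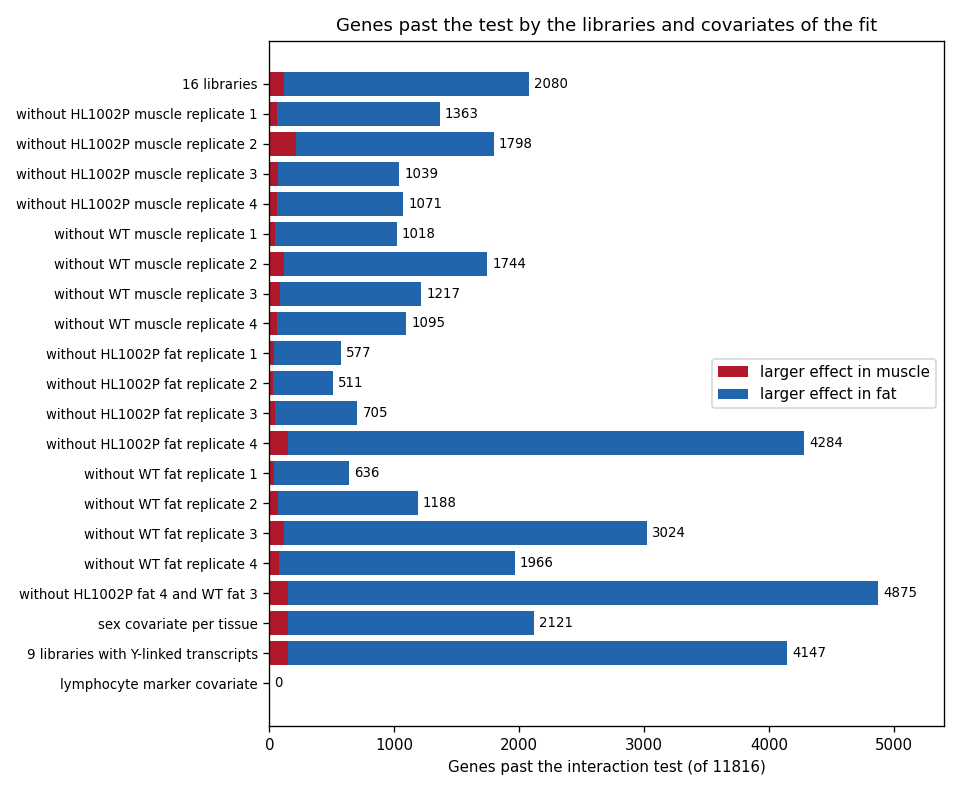
Number of genes past the interaction test in the fit of all 16 libraries, with each library left out in turn, without the 2 fat libraries richest in myofibre RNA, and with covariates; red is the part with the larger effect in muscle, blue that with the larger effect in fat. The bars run between 511 and 4875 genes without a covariate for lymphocyte markers, and the red part stays the smaller one.

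Genes with opposite signs in the tissues give the plainest contrast. Over all genes tested, 476 had an unadjusted p under 0.05 in both tissues, 329 of them with the same sign and 147 with opposite signs. Of the 2080 genes past the interaction test, which favours opposite signs, 1558 had them, the 147 included. The muscle level was higher and the fat level lower in HL1002P for 93 of the 147, and the reverse held for 54. The 10 genes named by rule, 5 in each direction, passed the interaction test in all 16 fits that left out a library.

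Slc7a8, on chromosome 14 at 54722215 to 54781886 (GRCm38), encodes a carrier of neutral amino acids across the cell membrane. It had 42.2, 17.7, 46.9 and 73.0 CPM in HL1002P muscle, against 17.0, 18.3, 17.1 and 20.9 CPM in WT muscle. In fat it had 10.9, 11.3, 13.2 and 15 CPM in HL1002P, against 31.1, 42.9, 21.2 and 24.7 CPM in WT. HL1002P muscle replicates 1, 3 and 4 lay above all WT muscle libraries and replicate 2 lay among them, while the fat genotypes did not overlap. The log2 fold change was 1.30 ± 0.31 (SE) in muscle, which did not pass the muscle test (adjusted p = 0.23), and -1.25 ± 0.31 in fat (adjusted p = 0.0063). The interaction was 2.55 ± 0.44 (adjusted p = 0.0117).

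Cdh13, on chromosome 8 at 118140017 to 119324929 (GRCm38), encodes T-cadherin, a membrane-anchored receptor of adiponectin. It had 108, 89.0, 126 and 106 CPM in HL1002P muscle, against 76.2, 92.9, 88.4 and 64.2 CPM in WT muscle. Its fat libraries held 7.95, 11.4, 11.8 and 15.9 CPM in HL1002P, against 38.8, 34.9, 26.0 and 32.6 CPM in WT. The fat genotypes were wide apart and the muscle genotypes overlapped through 1 HL1002P library. The log2 fold change was 0.41 ± 0.19 in muscle (adjusted p = 0.63) and -1.49 ± 0.19 in fat (adjusted p = 5.1e-04), and the interaction was 1.91 ± 0.27 (adjusted p = 0.0117).

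Mras, a Ras-related GTPase, and Scamp5, a protein of secretory vesicle membranes, kept the genotypes apart in both tissues. Scamp5 had 9.88, 7.41, 8.38 and 9.84 CPM in HL1002P muscle, against 4.85, 5.60, 5.86 and 5.42 CPM in WT muscle. The fat libraries had 12.4, 11.6, 14.6 and 14.2 CPM in HL1002P, against 23.5, 21.9, 16.5 and 17.9 CPM in WT. Its interaction was 1.30 ± 0.20, from 0.71 ± 0.14 in muscle (adjusted p = 0.11) and -0.59 ± 0.14 in fat (adjusted p = 0.0048). The interaction of Mras was 1.06 ± 0.18, and that of Fam171a2 was 1.81 ± 0.30. No overlap between genotypes was found for 5.33% of all genes tested in muscle and for 28.4% in fat.

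In the other direction stood Adal, on chromosome 2 at 121140044 to 121159440 (GRCm38), an adenosine deaminase-like enzyme, and the only gene past both single-tissue tests with opposite signs. It had 16.3, 20.2, 20.6 and 20.1 CPM in HL1002P muscle, against 34.2, 31.3, 31.6 and 34.4 CPM in WT muscle, with no overlap. Its fat levels were 14.5, 13.6, 12.7 and 9.39 CPM in HL1002P, against 8.97, 9.62, 9.50 and 9.27 CPM in WT, where HL1002P replicate 4 lay among the WT libraries. Adal fell by 0.77 ± 0.12 in muscle (adjusted p = 0.027) and rose by 0.43 ± 0.12 in fat (adjusted p = 0.012) on the log2 scale, and the interaction was -1.20 ± 0.17. With the block in muscle its muscle effect did not pass (adjusted p = 0.114). Adal lies within 20 Mb of Bub1b, a stretch described below.

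Mkl1, on chromosome 15 at 81012281 to 81190736 (GRCm38), encodes MRTF-A, an actin-sensing coactivator of serum response factor. It had 45.7, 47.4, 39.7 and 25.2 CPM in HL1002P muscle, against 64.6, 73.8, 54.0 and 52.1 CPM in WT muscle. In fat its levels were 61.0, 69.7, 74.8 and 45.7 CPM in HL1002P, against 24.3, 29.8, 32.7 and 31.1 CPM in WT. Neither tissue showed an overlap. Mkl1 rose by 1.09 ± 0.20 in fat (adjusted p = 0.0014), had -0.63 ± 0.20 in muscle (adjusted p = 0.38), and its interaction was -1.72 ± 0.28. Amph, the membrane-bending protein amphiphysin, had 0.89, 0.73, 0.66 and 1.28 CPM in HL1002P muscle, against 1.09, 3.91, 3.26 and 2.98 CPM in WT muscle. In fat Amph had 1.20, 1.73, 1.96 and 0.93 CPM in HL1002P, against 0.26, 0.42, 0.57 and 0.36 CPM in WT, with 114 and 373 reads in HL1002P and WT muscle and 390 and 109 reads in HL1002P and WT fat. Of the 5 genes named in this direction Amph had the largest interaction, at -3.50 ± 0.54, and Cecr5 and Tmco4 had -0.87 ± 0.14 and -0.96 ± 0.16.

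**Figure D4:**
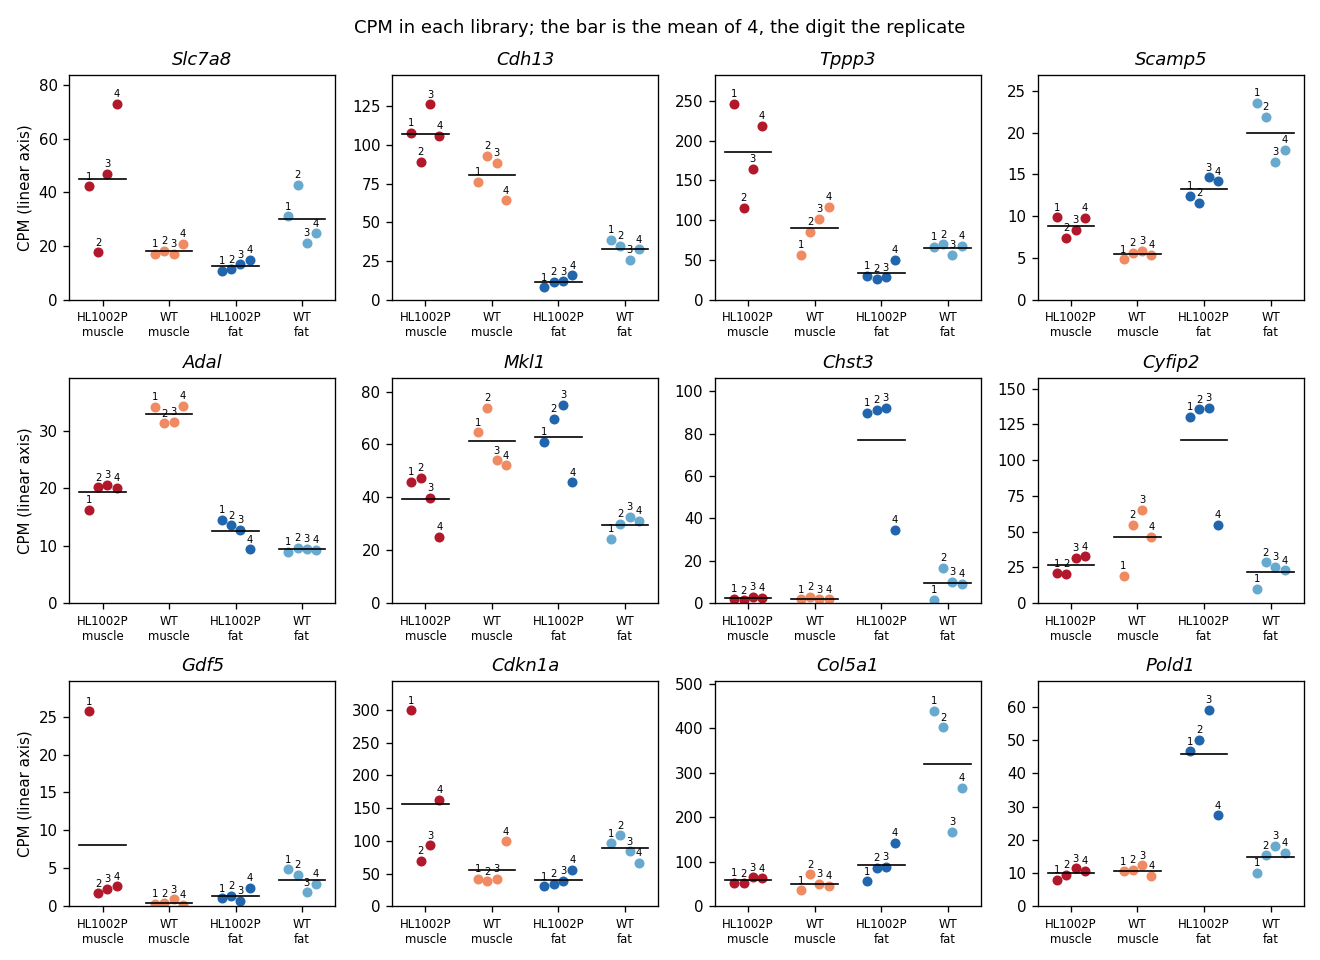
CPM of 12 genes in each of the 16 libraries (linear axes from 0), with the mean of 4 as a bar, the replicate number above each point, and HL1002P left of WT in each tissue. Slc7a8, Cdh13, Tppp3 and Scamp5 have the higher HL1002P mean in muscle and the lower one in fat, Adal and Mkl1 the reverse, and Gdf5 and Cdkn1a have HL1002P replicate 1 far above the other muscle libraries.

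Among the 121 genes with the larger effect in muscle, 99 had the higher level in HL1002P muscle and 22 the lower. For 46 of the 99, HL1002P muscle replicate 1 was the highest of the 4 HL1002P muscle libraries, as it was for 27.1% of all genes tested. Without that library 66 of the 121 still passed the interaction test.

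Large positive interactions with the change on the muscle side were smaller without HL1002P muscle replicate 1. Cntn2, an axonal adhesion protein, had 27.1, 0.41, 0.83 and 0.47 CPM in HL1002P muscle, against 0.19, 0.02, 0.29 and 0.29 CPM in WT muscle. Its interaction was 5.57 ± 1.68, and 1.92 without HL1002P muscle replicate 1 (adjusted p = 0.12). Gdf5, a ligand of the bone morphogenetic protein family, had 25.7, 1.71, 2.25 and 2.60 CPM in HL1002P muscle, against 0.31, 0.40, 0.92 and 0.19 CPM in WT muscle. In fat Gdf5 had 1.03, 1.35, 0.75 and 2.41 CPM in HL1002P, against 4.86, 4.16, 1.83 and 2.98 CPM in WT. Its interaction was 5.48 ± 1.16, and 3.61 without the library (adjusted p = 0.026), so Gdf5 kept its call. Aif1l had 111, 12.7, 21.7 and 23.4 CPM in HL1002P muscle, against 4.51, 6.75, 10.3 and 7.69 CPM in WT muscle, and its interaction of 3.22 ± 0.77 was 2.09 without the library (adjusted p = 0.028). Igfbp2, a binding protein of insulin-like growth factors, had an interaction of 4.35 ± 1.38, and 2.93 without the library (adjusted p = 0.10). Leaving out other libraries also cost calls: Cntn2 and Igfbp2 passed in 6 and 4 of 16 fits with a library left out. Gdf5 and Aif1l passed in all 16.

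The list of denervation and neuromuscular junction genes had 5 of 18 tested members past the interaction test, 4 positive and 1 negative, a share of 27.8% beside 17.6% of all genes. Its median log2 fold change was 0.35 in muscle and -0.14 in fat. In muscle 8 members had an unadjusted p under 0.05, all with the higher level in HL1002P, beside 7.74% of all genes in either direction. Cdkn1a, the cell cycle inhibitor p21, had 299, 69.4, 93.2 and 163 CPM in HL1002P muscle, against 42.0, 38.1, 42.2 and 99.3 CPM in WT muscle. Its fat libraries held 30.4, 34.6, 38.6 and 55.2 CPM in HL1002P, against 96.2, 108, 84.0 and 66.3 CPM in WT. Cdkn1a thus had the higher HL1002P mean in muscle and fell in fat, by 1.16 ± 0.41 on the log2 scale (adjusted p = 0.031). Its interaction was 2.65 ± 0.58 (adjusted p = 0.018), and 2.13 without HL1002P muscle replicate 1 (adjusted p = 0.031). Gadd45a, a stress gene that rises in denervated mouse muscle, had 267, 22.8, 48.5 and 52.3 CPM in HL1002P muscle, against 13, 8.42, 25.6 and 23.8 CPM in WT muscle, and levels of 5.40 to 9.69 CPM in HL1002P and 7.05 to 9.67 CPM in WT fat. Its interaction was 2.72 ± 0.82, and 1.47 without HL1002P muscle replicate 1 (adjusted p = 0.061), and it passed in 6 of 16 fits with a library left out. Leaving out a library gave 2 to 9 genes of the list. The low of 2 came without HL1002P muscle replicate 1 (1 positive and 1 negative). It also came without WT muscle replicate 1, 2 or 4, HL1002P fat replicate 1, 2 or 3, or WT fat replicate 1 or 4. With a sex covariate in each tissue 1 gene of the list was positive and 1 negative, and with DESeq2 6 and 1.

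Tppp3, Thbs3 and Eid1 had opposite signs in the tissues and passed the interaction test in all 16 fits with 1 library left out. Tppp3, a tubulin-binding protein, had 246, 116, 165 and 218 CPM in HL1002P muscle, against 56.9, 85.4, 101 and 117 CPM in WT muscle. The fat libraries had 30.3, 26.7, 28.0 and 50.015 CPM in HL1002P, against 66.5, 69.8, 56.6 and 67.7 CPM in WT. Its interaction was 2.0 ± 0.37, from 1.05 ± 0.26 in muscle (adjusted p = 0.25) and -0.95 ± 0.26 in fat (adjusted p = 0.0095). Thbs3, a thrombospondin of the extracellular matrix, had 21.9, 16.7, 22.9 and 24.7 CPM in HL1002P muscle, against 7.50, 13.1, 11.8 and 11.6 CPM in WT muscle, and its interaction was 1.68 ± 0.32. Eid1, an inhibitor of differentiation that binds EP300, was just outside the muscle test at 0.66 ± 0.12 (adjusted p = 0.0505), with 45.3, 37.4, 37.6 and 38.0 CPM in HL1002P muscle against 19.6, 27.1, 26.0 and 27.4 CPM in WT muscle. Its fat effect was -0.26 ± 0.12 (adjusted p = 0.079) and its interaction 0.92 ± 0.17 (adjusted p = 0.0117). Eid1 also lies within 20 Mb of Bub1b.

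Genes of the extracellular matrix gave 2 of the 3 process lists with more than 50% of their members past the interaction test. Of 24 collagen chain genes tested, 13 passed the interaction test, all positive, and of 31 genes of elastic fibres and matricellular proteins 17 were positive and 1 negative, shares of 54.2% and 58.1% beside 17.6% of all genes. The collagen genes had a median log2 fold change of 0.11 in muscle and -1.54 in fat, where 16 fell and 1 rose. The elastic fibre list had medians of 0.22 in muscle and -0.95 in fat, where 20 fell and 2 rose, beside medians of -0.01 and -0.04 over all genes. Of all genes 22.5% fell and 22.6% rose in fat. Col5a1, on chromosome 2 at 27886381 to 28039510 (GRCm38), encodes a chain of the collagen that starts fibrils. It had 53.2, 51.1, 65.0 and 62.4 CPM in HL1002P muscle, against 35.7, 71.9, 50.025 and 45.2 CPM in WT muscle. Its fat levels were 55.9, 85.8, 88.1 and 142 CPM in HL1002P, against 440, 402, 168 and 266 CPM in WT. The muscle genotypes overlapped and the fat genotypes did not: Col5a1 fell by 1.78 ± 0.31 in fat (adjusted p = 0.0014), had 0.19 ± 0.31 in muscle, and its interaction was 1.97 ± 0.44. Col5a2 and Col16a1 followed with interactions of 1.86 ± 0.47 and 2.2 ± 0.55.

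Fbln2 and Mfap5, components of elastic fibres, had interactions of 1.81 ± 0.35 and 1.82 ± 0.37. Fmod, fibromodulin, a proteoglycan that binds collagen and is abundant in tendon, was the negative member of the list. It had 89.3, 107, 182 and 196 CPM in HL1002P muscle, against 227, 272, 127 and 231 CPM in WT muscle. In fat its levels were 34.6, 27.4, 46.6 and 29.7 CPM in HL1002P, against 6.03, 8.76, 9.89 and 10.4 CPM in WT. Fmod rose by 1.98 ± 0.29 in fat (adjusted p = 7.6e-04), and its interaction was -2.56 ± 0.41. Fibroblast markers share Col1a1, Col3a1, Lum and Mfap5 with these lists, and 6 of the 15 were positive (40%), with medians of 0.21 in muscle and -0.85 in fat. Of the 16 endothelial markers 6 were positive (37.5%), with medians of -0.03 in muscle and -0.75 in fat. Of all genes 17.6% passed the interaction test. Leaving out libraries gave 1 (without HL1002P fat replicate 2 or 3) to 17 (without HL1002P fat replicate 4) collagen genes, with a median interaction of 1.42 to 2.13, and 8 to 23 elastic fibre genes. With the lymphocyte marker covariate 0 members of either list passed, with medians of 0.96 and 0.86.

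Genes of DNA replication differed the other way. Of 28 tested members 16 passed the interaction test, all negative, a share of 57.1% beside 17.6% of all genes, and 24 rose in fat (22.6% of all genes did) while 0 passed the test in muscle in either direction (edgeR, 1 at an unadjusted p under 0.05). The median log2 fold change was 0.02 in muscle and 0.97 in fat. Pold1, on chromosome 7 at 44532744 to 44548815 (GRCm38), encodes the catalytic subunit of DNA polymerase delta. It had 8.03, 9.40, 11.4 and 10.7 CPM in HL1002P muscle, against 10.5, 11, 12.3 and 9.15 CPM in WT muscle. In fat it had 46.6, 50.1, 59 and 27.4 CPM in HL1002P, against 10.1, 15.3, 18.2 and 16 CPM in WT. The fat genotypes did not overlap, and HL1002P replicate 4 was the lowest of its group. That library also had the fewest B and T cell markers of its group, and a link was not tested. Pold1 rose by 1.62 ± 0.22 in fat (adjusted p = 5.9e-04), and its interaction was -1.74 ± 0.31 (adjusted p = 0.0117). Rfc2, of the clamp loader, and Tk1, thymidine kinase, had interactions of -1.14 ± 0.23 and -1.77 ± 0.40.

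Mcm5, a subunit of the replicative helicase chosen after its values were seen, is shown with its promoter because 24 of the 28 tested genes of its list rose in fat. The 250 bases before its RefSeq start site (GRCm38.p6, chr8:75109259-75109508, plus strand) hold 1 match to the E2F motifs searched, TTTCCCGC and TTTGGCGC on both strands, here in capitals:
Mcm5: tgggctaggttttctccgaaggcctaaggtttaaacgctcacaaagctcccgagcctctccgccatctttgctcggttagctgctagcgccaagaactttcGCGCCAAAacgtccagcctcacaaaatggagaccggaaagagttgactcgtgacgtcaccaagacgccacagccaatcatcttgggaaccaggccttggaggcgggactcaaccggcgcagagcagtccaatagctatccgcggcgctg
E2F proteins are the transcription factors of the S phase genes. A match was found in this window for 6 of the 28 listed genes with a promoter entry, tested or not (21.4%). Among listed genes past the interaction test it was found for 3 of the 14 with an entry, also 21.4%. It was found for 254 of the 8941 genes tested that have an entry (2.84%), and for 407 of all 27025 genes with one (1.51%). Mcm5 had 2.26, 2.69, 1.49 and 1.69 CPM in HL1002P muscle, against 1.06, 1.89, 2.27 and 1.75 CPM in WT muscle. Its fat libraries held 71.1, 68.9, 53 and 20.5 CPM in HL1002P, against 10.1, 22, 14.6 and 13.9 CPM in WT, with HL1002P replicate 4 inside the WT range. Its interaction was -1.60 ± 0.51 (adjusted p = 0.044).

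The smaller lists of cell cycle genes had median interactions of -0.70 (spindle checkpoint and kinetochore) and -1.19 (mitosis). Of 29 spindle checkpoint and kinetochore genes 10 passed the expression filter, of which 4 were negative and 1 positive (50%). Of 30 mitosis genes 9 passed it, of which 2 were negative, 22.2% and near the 17.6% of all genes. Listed genes under the filter, such as Bub1 (0.85 ± 1.17) and Plk1 (-1.31 ± 0.55), had interactions of both signs in the fit with a filter by group. Aurka, a mitotic kinase, had 10.2, 16.8, 9.84 and 9.87 CPM in HL1002P muscle, against 26.1, 17.9, 15.2 and 16.4 CPM in WT muscle. The fat libraries had 9.74, 8.96, 7.99 and 3.85 CPM in HL1002P, against 3.56, 3.60, 3.81 and 3.42 CPM in WT. Its interaction was -1.78 ± 0.37, from -0.69 ± 0.26 in muscle (adjusted p = 0.51) and 1.09 ± 0.26 in fat (adjusted p = 0.0054). Cenpa, the histone of the centromere, had -1.41 ± 0.41, and Zwint, a kinetochore protein, was the positive one with 0.73 ± 0.21, though they passed in 7 and 4 of 16 fits with a library left out, whereas Aurka passed in all 16. Leaving out libraries gave 4 (without HL1002P fat replicate 1, HL1002P fat replicate 2 or WT fat replicate 1) to 22 (without HL1002P fat replicate 4) DNA replication genes, and the lymphocyte marker covariate gave 0, with a median of -0.25.

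The 8 genes with the most negative interactions, taken among those without overlap in the tissue with the larger effect, all rose in fat. So did 1034 of all 1058 genes with a negative interaction, so choosing by that sign nearly fixes the direction in fat. Chst3, on chromosome 10 at 60181527 to 60222114 (GRCm38), encodes a sulfotransferase of chondroitin. It had 1.94, 1.20, 2.85 and 2.55 CPM in HL1002P muscle, against 1.80, 2.91, 1.72 and 1.78 CPM in WT muscle. Its fat levels were 89.8, 91.4, 92.1 and 34.6 CPM in HL1002P, against 1.46, 16.6, 10.2 and 9.06 CPM in WT. Chst3 rose by 3.05 ± 0.53 in fat (adjusted p = 0.0013), and its interaction was -3.0 ± 0.75. Its order over the 8 fat libraries was close to that of the B cell markers, with WT replicate 1 lowest and HL1002P replicate 4 lowest of its group. How many other genes kept this order was not counted, and a link was not tested. Cyfip2, a subunit of the actin-regulating WAVE complex, had 130, 136, 137 and 54.8 CPM in HL1002P fat, against 10.1, 28.3, 25.1 and 22.8 CPM in WT fat. Its muscle levels ran from 20.2 to 32.6 CPM in HL1002P and from 18.9 to 65.0 CPM in WT, and its interaction was -3.21 ± 0.55.

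Colq, which anchors acetylcholinesterase at the neuromuscular junction, was the negative member of the denervation list. It had 17.9, 21.8, 15.4 and 28.4 CPM in HL1002P muscle, against 18.1, 26.7, 20.5 and 16.6 CPM in WT muscle. In fat its levels were 22.8, 21.0, 29.1 and 8.60 CPM in HL1002P, against 0.26, 2.55, 4.15 and 2.71 CPM in WT, where it rose by 3.07 ± 0.55 (adjusted p = 0.0014). The interaction of Colq was -3.05 ± 0.73, and with the lymphocyte marker covariate it was 0.25. Prox1, a transcription factor of lymphatic endothelium, had 3.0, 3.77, 5.08 and 1.11 CPM in HL1002P fat, against 0.12, 0.48, 0.48 and 0.66 CPM in WT fat, and its interaction of -2.84 ± 0.68 was 0.16 with the covariate. Sema3a, a guidance factor of axons and vessels, and Rmi2, of the complex that unlinks recombining DNA, had interactions of -3.06 ± 0.66 and -2.86 ± 0.63. Egr3, an immediate early transcription factor, had 1.57, 2.56, 1.16 and 0.76 CPM in HL1002P muscle, against 1.90, 11.6, 0.44 and 2.40 CPM in WT muscle, and rose in fat by 2.11 ± 0.69 (adjusted p = 0.023). Its interaction of -3.56 ± 0.99 was -2.18 to -3.95 with a library left out and passed in 9 of 16 such fits.

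Tekt1, Apln and Fam20c, with large positive interactions, fell in fat and did not pass the test in muscle. Tekt1, a protein of ciliary microtubules, had 0.06, 0, 0.06 and 0.21 CPM in HL1002P fat (17 reads in all), against 4.36, 5.0, 0.33 and 0.57 CPM in WT fat. In muscle it had 11, 9.25, 3.71 and 3.67 CPM in HL1002P, against 8.46, 5.23, 2.49 and 3.21 CPM in WT. The 2 WT fat libraries with Y-linked transcripts were the high ones, and in the 9 libraries with Y-linked transcripts alone the interaction was 7.38 (adjusted p = 0.0011), against 5.59 ± 1.27 in all 16. Apln, a peptide hormone made by adipocytes and endothelium, had 2.78, 2.42, 3.20 and 3.96 CPM in HL1002P fat, against 28.5, 21.5, 5.96 and 10.4 CPM in WT fat, and its interaction was 3.17 ± 0.60. Fam20c, the kinase of secreted proteins, had 8.99, 17.2, 10.8 and 24.2 CPM in HL1002P fat, against 217, 265, 52.6 and 28.7 CPM in WT fat, with an interaction of 3.05 ± 0.77. For all 3 genes WT replicates 1 and 2 were the highest fat libraries.

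Many lipid genes fell in fat, and most of them did not pass the interaction test. Of 29 fatty acid oxidation genes 22 fell in fat (22.5% of all genes did) and 0 passed in muscle (edgeR). In muscle 9 had an unadjusted p under 0.05, all lower in HL1002P, beside 7.74% of all genes in either direction. In the interaction 2 were positive, a share of 6.9% beside 17.6% of all genes. The medians were -0.32 in muscle and -0.70 in fat, so both tissues had the lower median level in HL1002P. Ucp3, a mitochondrial carrier of muscle, had 160, 139, 218 and 287 CPM in HL1002P muscle, against 130, 146, 178 and 132 CPM in WT muscle. In fat it had 8.24, 13.9, 12.4 and 23.7 CPM in HL1002P, against 49.98, 40.4, 29.4 and 25.6 CPM in WT, and its interaction was 1.78 ± 0.43. Cd36, the fatty acid translocase, fell in fat by 1.64 ± 0.31 (adjusted p = 0.0017), had -0.32 ± 0.30 in muscle, and its interaction was 1.31 ± 0.43 (adjusted p = 0.048), a call that held in 4 of 16 fits with a library left out. Of 18 lipid droplet and lipolysis genes 13 fell in fat and 3 passed the interaction test, a share of 16.7% near the 17.6% of all genes. Among these 3 were Plin2 and Plin4, coats of the lipid droplet, with 1.43 ± 0.40 and 1.95 ± 0.54. With a library left out they passed in 6 and 8 of 16 fits. For de novo fatty acid synthesis 2 of 20 genes were positive (10%), both of the pentose phosphate branch: Pgd with 1.17 ± 0.31 and G6pdx with 1.23 ± 0.39. With a library left out they passed in 10 and 5 of 16 fits.

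Of 30 heat shock and chaperone genes 7 were positive and 0 negative, a share of 23.3% beside 17.6% of all genes, with a median interaction of -0.04. All 7 fell in fat, as did 925 of all 1022 genes with a positive interaction. The 7 were the small heat shock proteins Hspb1, Hspb8, Hspb7, Hspb2 and Cryab, with Bag3 and the J-domain protein Dnajb4. Small heat shock proteins and their partner Bag3 keep unfolding proteins from clumping and are abundant in muscle. Hspb1 is shown with its promoter because its motif gives the list its name. The 250 bases before its RefSeq start site (GRCm38.p6, chr5:135887669-135887918, plus strand) hold 2 matches to the core of the heat shock element, GAANNTTC or TTCNNGAA, here in capitals:
Hspb1: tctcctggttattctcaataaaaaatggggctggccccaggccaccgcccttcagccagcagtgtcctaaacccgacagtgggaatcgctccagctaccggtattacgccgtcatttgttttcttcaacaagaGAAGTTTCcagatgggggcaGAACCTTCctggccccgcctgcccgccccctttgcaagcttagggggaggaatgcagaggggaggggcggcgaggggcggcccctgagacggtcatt
Each motif reads the same on both strands, and the 2 matches do not overlap. The motif was present for 11 of the 24 listed genes with an entry (45.8%), and for 2 of the 5 of them past the interaction test (40%). It was present for 1099 of the 8941 genes tested that have an entry (12.3%), and for 3932 of all 27025 genes (14.5%). Hspb1 had 422, 228, 316 and 586 CPM in HL1002P muscle, against 175, 196, 233 and 374 CPM in WT muscle. Its fat libraries held 17.5, 17.3, 21.9 and 43.3 CPM in HL1002P, against 76.8, 84.3, 66.7 and 45.1 CPM in WT, and its interaction was 2.12 ± 0.50 (adjusted p = 0.019). Hspb8 and Bag3 had 1.70 ± 0.40 and 0.93 ± 0.26, and passed in 16 and 7 of 16 fits with a library left out. Leaving out a library gave 2 to 12 of the list's genes. The low of 2 came without HL1002P muscle replicate 1, 3 or 4, WT muscle replicate 1, HL1002P fat replicate 1, 2 or 3, or WT fat replicate 1 or 2. Without HL1002P fat replicate 4, 10 were positive and 2 negative.

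Senescence and p53 genes were mixed. Of 26 cell cycle inhibitors and secreted factors of senescence 5 were positive and 3 negative, a share of 30.8% beside 17.6% of all genes. Lmnb1, lamin B1, known to fall in senescent cells, had 45.7, 45.6, 42.2 and 20.8 CPM in HL1002P fat, against 9.20, 14.6, 13.7 and 11.6 CPM in WT fat. Its levels were 7.58 to 8.88 CPM in HL1002P and 7.23 to 10.4 CPM in WT muscle, and its interaction was -1.73 ± 0.31. Mmp2, a matrix metalloproteinase, and Plau, the urokinase, were positive with 1.66 ± 0.33 and 1.07 ± 0.22, and both fell in fat. Of 27 p53 targets 6 were positive and 0 negative, a share of 22.2%, near the 17.6% of all genes. Pltp, a lipid transfer protein, had 1.90 ± 0.41 and Phlda3, an inhibitor of Akt, had 1.63 ± 0.39, each with the change past the test in fat, whereas Cdkn1a and Gadd45a had the larger fold change in muscle without passing the muscle test (adjusted p = 0.31 and 0.23). Without HL1002P muscle replicate 1 the muscle effect of Cdkn1a was 0.97, smaller than its fat effect, and that of Gadd45a was 1.22.

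Of the 5 genes past both single-tissue tests 4 had the same sign. The interaction also passed for Ccndbp1 and Gm14085, described below, and not for Aldh3a1 and Haus2. Aldh3a1, on chromosome 11 at 61208510 to 61218418 (GRCm38), encodes an aldehyde dehydrogenase. It had 3.95, 3.45, 4.67 and 4.32 CPM in HL1002P muscle, against 0.25, 0.52, 0.77 and 0.39 CPM in WT muscle. The fat libraries had 2.74, 1.80, 1.89 and 1.18 CPM in HL1002P, against 0.44, 0.44, 0.32 and 0.36 CPM in WT. Neither tissue showed an overlap, and Aldh3a1 rose by 3.09 ± 0.32 in muscle (adjusted p = 8.2e-04) and 2.29 ± 0.30 in fat (adjusted p = 5.6e-04). The interaction of 0.80 ± 0.43 did not pass (adjusted p = 0.19). Haus2, a subunit of the augmin complex of the spindle, fell by 0.74 ± 0.11 in muscle and by 0.89 ± 0.11 in fat, with an interaction of 0.15 ± 0.16 (adjusted p = 0.51).

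Cdkn2a, which encodes the cell cycle inhibitors p16 and p19, lay under the expression filter in muscle. It had 1.29, 0.76, 0.93 and 0.52 CPM in HL1002P muscle, against 0, 0.15, 0.15 and 0.06 CPM in WT muscle, from 104 and 12 reads. Its fat levels were 4.83, 3.66, 4.03 and 2.64 CPM in HL1002P, against 0.66, 1.25, 1.21 and 0.71 CPM in WT. Neither tissue showed an overlap. In the fit with a filter by group the interaction was 1.30 ± 0.72 (adjusted p = 0.23), from 3.21 ± 0.57 in muscle (adjusted p = 0.064) and 1.91 ± 0.47 in fat (adjusted p = 0.0075). Ryr3, a calcium release channel encoded within 20 Mb of Bub1b, had 1.62 ± 0.42 in muscle and 1.75 ± 0.42 in fat, and Glo1, which detoxifies methylglyoxal, had -0.71 ± 0.19 and -0.64 ± 0.19. Their interactions were -0.12 ± 0.58 (adjusted p = 0.89) and -0.07 ± 0.26 (adjusted p = 0.85). Fabp3, a fatty acid binding protein, had -0.94 ± 0.64 in muscle and -1.46 ± 0.67 in fat, and Spp1, osteopontin, 0.96 ± 0.49 and 0.53 ± 0.48. In muscle Fabp3 averaged 628 CPM in HL1002P and 1205 CPM in WT, and Spp1 13.9 and 7.17 CPM, both without overlap. In fat Fabp3 averaged 1.80 and 4.84 CPM, and Spp1 7.71 and 5.36 CPM, both with overlap. The SE of each gene uses a spread shared by the tissues. A p that misses the threshold does not show that the muscle and fat effects of these genes were equal.

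Bub1b itself, the gene that carries the alleles, had opposite mean changes in the tissues. It had 0.28, 0.25, 0.27 and 0.39 CPM in HL1002P muscle, against 1.34, 1.25, 1.03 and 1.07 CPM in WT muscle, from 38 and 154 reads. In fat its levels were 15.6, 15.7, 13.2 and 4.17 CPM in HL1002P, against 4.68, 7.57, 6.74 and 7.42 CPM in WT. HL1002P fat replicate 4 was below all WT fat libraries and the other 3 were above them. Bub1b was under the filter in muscle; in the fit with a filter by group its interaction was -2.78 ± 0.48 (adjusted p = 0.017), from -1.98 ± 0.37 in muscle (adjusted p = 0.066) and 0.81 ± 0.32 in fat (adjusted p = 0.057). HL1002P replicate 4 was also the lowest HL1002P fat library for Pold1 and Mcm5.

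Genes around Bub1b are given separately, since neighbours on the chromosome are inherited with the alleles. Of 219 genes tested within 20 Mb of Bub1b 41 passed the interaction test (18.7%), beside 17.6% elsewhere, and 102 passed in fat (46.6%), beside 45.1% elsewhere. In muscle, 6 of the 8 genes past the muscle test lay there, 2.74% of the genes near Bub1b and 0.0173% of those elsewhere. These were Ccndbp1, Hypk and Gm14085, which rose, and Adal, Haus2 and Mfap1a, which fell. Ccndbp1, a partner of cyclin D, had 82.0, 67.6, 89.5 and 95.4 CPM in HL1002P muscle, against 39.1, 34.7, 44.5 and 45.1 CPM in WT muscle. In fat it had 41.5, 41.3, 43.1 and 35.6 CPM in HL1002P, against 29.3, 34.6, 34.6 and 32.4 CPM in WT. It rose in both tissues, by 1.03 ± 0.12 in muscle and 0.30 ± 0.12 in fat, and the effects differed by 0.73 ± 0.17 (adjusted p = 0.019).

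Gm14085 had 2.82, 4.53, 3.55 and 3.49 CPM in HL1002P muscle (454 reads), against 0, 0.02, 0 and 0 CPM in WT muscle (1 read). The ratio of these reads was 474 (exact 95% interval 84.6 to 18800, counting error only). Its fat libraries held 12.1, 12, 10.6 and 6.77 CPM in HL1002P, against 0.15, 2.66, 3.36 and 6.90 CPM in WT, which overlap. The interaction passed (adjusted p = 0.018), and its size rests on a WT muscle group with 1 read. Reads of a near-identical copy could be split between Gm14085 and Slc28a2, so the values are uncertain. Mfap1a, a splicing factor, had 12.3, 13, 12.3 and 12.7 CPM in HL1002P muscle, against 19.6, 19.4, 22.7 and 24.5 CPM in WT muscle, and no fat effect past the test (-0.04 ± 0.10). Mfap1a has a near-identical neighbour, Mfap1b, and how reads of both were assigned is not given in the sources used here, so its values are uncertain. The remaining 2 genes past the muscle test, Aldh3a1 and Fam174b, lie on other chromosomes.

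Lists of energy and protein synthesis had few or no members past the interaction test. Of 33 subunits of oxidative phosphorylation 0 passed the interaction test (edgeR, 0 at an unadjusted p under 0.05, 0 by DESeq2 and 0 by limma voom), with medians of -0.14 in muscle and -0.24 in fat. Of 36 cytosolic ribosomal protein genes all rose in fat (22.6% of all genes did), with a median of 0.84 beside 0.09 in muscle. Yet 2 passed the interaction test, Rpl8 and Rps3, a share of 5.56% beside 17.6% of all genes. At an unadjusted p under 0.05 the interaction had 29 of them, beside 36.9% of all genes. The 2 calls held in 4 and 3 of 16 fits with a library left out. Rps3 had 1509, 1455, 1027 and 817 CPM in HL1002P fat, against 341, 623, 722 and 632 CPM in WT fat, and 468 to 529 CPM in HL1002P and 393 to 559 CPM in WT muscle. Without HL1002P fat replicate 4, 28 ribosomal protein genes were negative, and DESeq2 on all libraries gave 18. Of 24 genes of cholesterol synthesis 0 passed (9 unadjusted, 4 by DESeq2, 1 by limma voom), and of 30 interferon-stimulated genes 1 did, with medians of 0.49 in muscle and 0.50 in fat.

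Macrophage markers had a median log2 fold change of 0.97 in muscle and of 0.12 in fat. In muscle 14 of 18 had an unadjusted p under 0.05 and the higher level in HL1002P, beside 7.74% of all genes in either direction. After adjustment 0 passed the muscle test (edgeR), and 2 were positive in the interaction, a share of 11.1% beside 17.6% of all genes. Their summed level was 1249, 1092, 1453 and 2031 CPM in HL1002P muscle, against 852, 1918, 1644 and 1407 CPM in WT muscle, with overlap, and 4658 to 5474 CPM in HL1002P against 3934 to 10391 CPM in WT fat. The median tested member averaged 17.1 CPM in muscle and 73.9 CPM in fat, so the more abundant members carry most of these sums. The list includes Lpl, which is not particular to macrophages. Over the WT fat libraries the sums had the same order as the adipocyte marker sums, and over the HL1002P fat libraries they did not. The sums therefore do not measure macrophages alone, and their overlap says little about the other members. Genes of MHC class II presentation had medians of 1.03 in muscle and 1.23 in fat, and mast cell markers 1.12 and 1.05. Of 9 MHC class II genes 1 was negative, and of 9 mast cell markers 0 passed (edgeR, 0 unadjusted, 0 by DESeq2 and 0 by limma voom).

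Foxo1 and Pik3r1 had the larger effect in muscle. Foxo1, a transcription factor that drives atrophy genes, had 93.8, 28.8, 115 and 172 CPM in HL1002P muscle, against 22.5, 27.0, 30.5 and 27.2 CPM in WT muscle. The fat libraries had 86.2, 80.1, 86.0 and 89.1 CPM in HL1002P, against 86.4, 57.0, 62.1 and 60.1 CPM in WT. HL1002P muscle replicate 2 lay among the WT libraries and the other HL1002P ones lay above them. Foxo1 had 1.93 ± 0.35 in muscle, just outside the test (adjusted p = 0.0505), and an interaction of 1.57 ± 0.48 that passed in 4 of 16 fits with a library left out. Of the 29 atrophy and FoxO genes 4 were positive and 1 negative, and of 29 insulin and IGF1 signalling genes 5 were positive, shares of 17.2% each and so no higher than the 17.6% of all genes. Pik3r1, the regulatory subunit of PI3 kinase, had 70.7, 40.2, 108 and 109 CPM in HL1002P muscle, against 31.9, 51.0, 56.5 and 48.9 CPM in WT muscle, and its interaction was 1.37 ± 0.38. Igf2, a growth factor, had 39.6, 35.1, 40.2 and 41.1 CPM in HL1002P muscle, against 26.2, 31.2, 30.8 and 28.0 CPM in WT muscle, with no overlap. Its effect was 0.43 ± 0.18 in muscle (adjusted p = 0.57) and -0.48 ± 0.18 in fat (adjusted p = 0.040), and its interaction was 0.90 ± 0.25. Igf2r, its clearance receptor, and Peg3, an imprinted zinc finger gene, had interactions of 0.68 ± 0.18 and 2.59 ± 0.74, with fat effects of -0.58 ± 0.13 and -1.72 ± 0.52 larger than those in muscle. They were among 4 positive genes of 18 in the imprinted list, a share of 22.2%.

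Of 16 satellite cell and myogenic genes 2 were positive and 1 negative, a share of 18.8% near the 17.6% of all genes. Mef2c, a transcription factor of muscle that B cells also use, had 661, 791, 599 and 539 CPM in HL1002P muscle, against 820, 877, 736 and 636 CPM in WT muscle. Its fat levels were 111, 106, 107 and 50.04 CPM in HL1002P, against 26.9, 35.1, 40.2 and 32.0 CPM in WT. The fat genotypes did not overlap, and the interaction of Mef2c was -1.73 ± 0.32. Itga7, the laminin-binding integrin of muscle, had 44.3, 62.9, 61.2 and 104 CPM in HL1002P fat, against 482, 487, 127 and 122 CPM in WT fat, with WT replicates 1 and 2 far above the others, and an interaction of 2.2 ± 0.57. Of 28 NRF2 targets and aldehyde detoxification genes 6 were positive (21.4%), among them Akr1b8, an aldo-keto reductase, with 1.41 ± 0.33. All 6 fell in fat, as did 925 of all 1022 genes with a positive interaction. Of 9 tendon markers 3 were negative, a share of 33.3%: Fmod, Chad and Thbs4. Chad, a cartilage and tendon matrix protein, had 10.3, 6.97, 17.9 and 16.2 CPM in HL1002P muscle, against 22.1, 35.4, 12.9 and 39.5 CPM in WT muscle, and rose in fat by 1.34 ± 0.43 (adjusted p = 0.020). Tendon markers summed to 417 to 621 CPM in HL1002P and 335 to 747 CPM in WT muscle, so the muscle genotypes overlapped for the list.

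**Figure D5:**
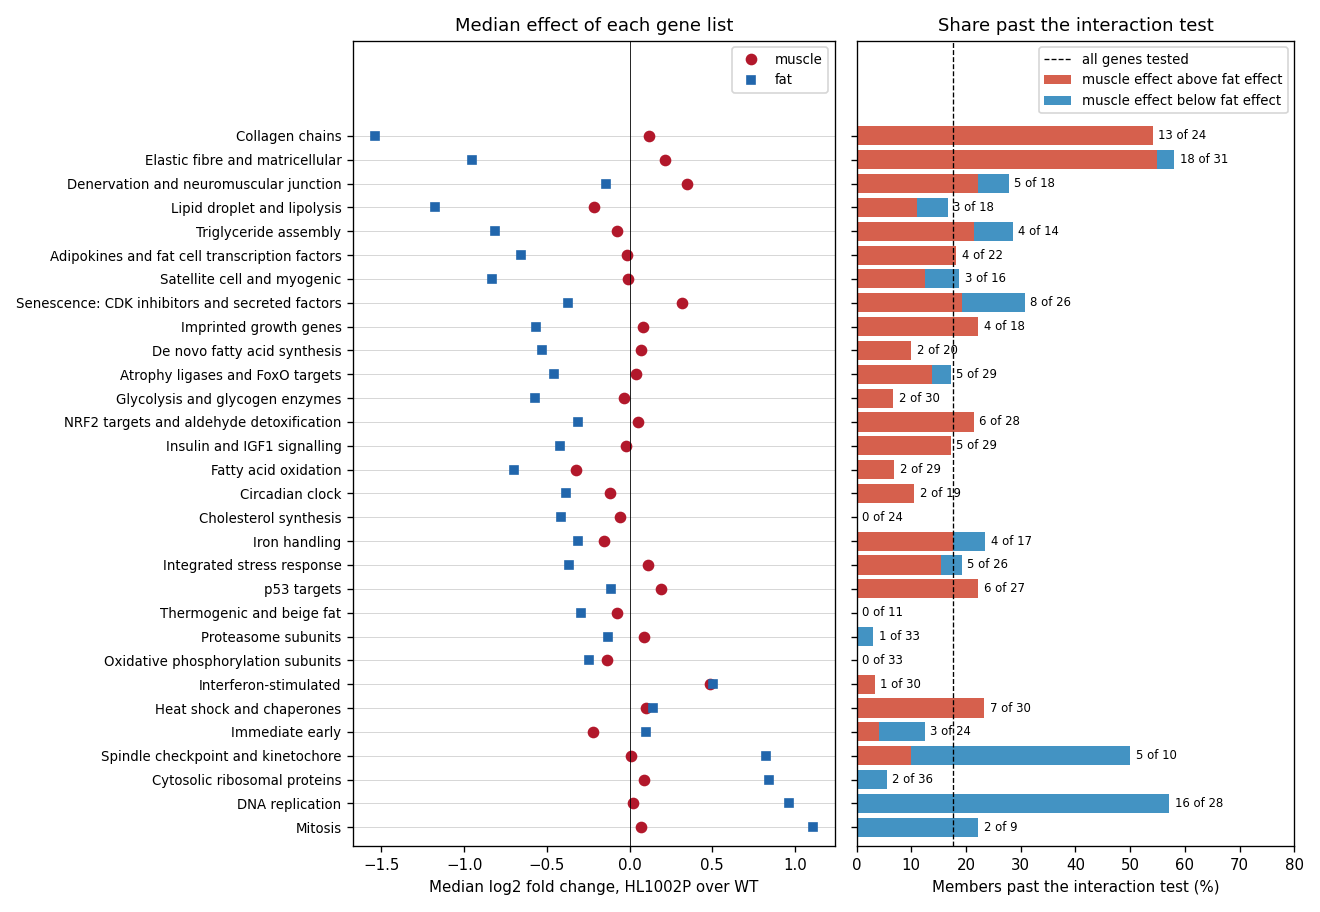
Left, the median log2 fold change of HL1002P over WT in muscle (circles) and fat (squares) for 30 gene lists, sorted by the median interaction; right, the share of tested members past the interaction test in each direction, with the count beside the bar and the 17.6% of all genes as a dashed line. Collagen, elastic fibre and DNA replication genes exceed 50%, and the fat medians spread from -1.54 to 1.11 while the muscle medians stay between -0.32 and 0.49.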

How the data were processed

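RNA from whole gastrocnemius and fat was sequenced from libraries of a kit that does not keep strand, so a gene and an overlapping antisense gene cannot be told apart. The authors deposited 1 table of raw read counts per gene. TopHat2 2.0.14, Bowtie2 2.2.6, featureCounts 1.4.6 and Subread and the build mm10 are named per the submitters' processing notes. Totals were 34137821 to 55266273 counts in muscle and 28496631 to 58828571 in fat.

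From these counts, genes averaging 1 CPM or more in both tissues were fitted with edgeR 4.0.16 (R 4.3.3; TMM factors, quasi-likelihood test, 1 coefficient for each tissue and genotype). The contrasts were the muscle effect minus the fat effect, and each effect alone, with Benjamini-Hochberg adjustment over the 11816 genes tested. CPM use the TMM-scaled total. Bub1b, Cdkn2a and Igfn1 lay under the filter and come from a fit with edgeR's filter by group. The script was tested on simulated data. DESeq2 1.42.0, limma 3.58.1 (voom), other filters and factors, covariates and fits without single libraries were alternatives. Deviations of same-numbered HL1002P and WT libraries correlated at 0.12 to 0.354 in muscle, all above 0.1 (these pairs also match in having Xist or Y-linked transcripts), and at -0.223 to 0.264 in fat. The number was therefore used as a pairing in muscle alone, as an alternative. HL1002P muscle replicates 2 and 4 correlated better with WT muscle replicates 1 and 3, so the pairing is not established. Same-numbered muscle and fat libraries correlated at -0.0879 to 0.169. Intervals cover counting error only.

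Genes were named by rule, passing over predicted genes, and some genes the rule names are not reported here. Of those past the interaction test these were the 8 largest interactions of each sign without overlap of the genotypes in the tissue with the larger effect, the 5 lowest p-values of each opposite direction with unadjusted p under 0.05 in both tissues, and 6 with the larger effect in muscle. Added were genes past both single-tissue tests with the same sign but not the interaction test, 9 genes always given, and up to 3 called genes of lowest p per list. The genes of the muscle test, Mcm5 and further list members were named after their values were seen. The rule, the members and the 45 lists were chosen with earlier results of these data known. Promoters are RefSeq's (GRCm38.p6).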

Additional observations from a re-analysis of the deposited data

Results flagged for a closer look

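The HL1002P effect in muscle differed from that in fat for 2080 genes by the test of the difference itself. Among the genes named with the larger positive interactions, the log2 difference of muscle minus fat was 5.59 for Tekt1, 5.57 for Cntn2, 5.48 for Gdf5 and 4.35 for Igfbp2. It was 3.22 for Aif1l, 3.17 for Apln and 3.05 for Fam20c. On the negative side it was -3.56 for Egr3, -3.50 for Amph, -3.21 for Cyfip2, -3.06 for Sema3a, -3.05 for Colq, -3.0 for Chst3, -2.86 for Rmi2 and -2.84 for Prox1. Among genes of opposite direction or larger effect in muscle it was 1.91 for Cdh13, 1.30 for Scamp5, 1.81 for Fam171a2, 1.06 for Mras, 2.55 for Slc7a8, 0.92 for Eid1, 2.0 for Tppp3 and 1.68 for Thbs3. It was -1.20 for Adal, -1.72 for Mkl1, -0.87 for Cecr5 and -0.96 for Tmco4.

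Of 208 groups of 4 libraries examined, 28 had 1 library far from the other 3 by Dixon's 95% critical value, which chance alone gives in about 1 of 20 groups. HL1002P muscle replicate 1 was high for Cntn2 (27.1 CPM), Gdf5 (25.7), Igfbp2 (13.6), Aif1l (111), Eid1 (45.3) and mammary and skin epithelium markers (258), and low for Adal (16.3). HL1002P fat replicate 4 was high for Aif1l (8.21 CPM), Tppp3 (50.015), Fabp3 (4.96), Glo1 (68.9), myofibre markers (5492) and mammary and skin epithelium markers (1001), and low for Cyfip2 (54.8), Chst3 (34.6) and B cell markers (1174). HL1002P muscle replicate 3 was low for Cecr5 (37.4 CPM), HL1002P muscle replicate 4 was high for B cell markers (24.9), and HL1002P fat replicate 3 was high for tendon markers (379). WT muscle replicate 2 was low for Glo1 (271 CPM) and high for Chst3 (2.91). WT muscle replicate 4 was low for Haus2 (16.3 CPM) and WT muscle replicate 1 for fibroblast markers (2135). WT fat replicate 3 was high for Igfn1 (0.628 CPM), myofibre markers (14510) and tendon markers (247), WT fat replicate 4 was high for Igfbp2 (7.59), and WT fat replicate 1 was low for T cell markers (101).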

How the results depend on the processing

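The interaction count of 2080 genes was 511 to 4284 with 1 library left out, and 2181 with RLE factors, 2038 with TMM within each tissue, 2142 with limma voom and 3067 with DESeq2. It moved to 1163 with no filter on low counts, 1270 with a replicate block by mouse, 4147 in the libraries with Y-linked transcripts, 4875 without the 2 myofibre-rich fat libraries, 0 with the lymphocyte marker covariate and 1 with it in fat alone. The fit without the myofibre-rich libraries and the covariate in fat alone were chosen after seeing the data. The muscle count of 8 was 3 to 44 with 1 library left out, 13 with TMM within each tissue, 96 with DESeq2, 20 with voom, 18 with a sex covariate, 2 with Y-linked libraries, 5 with thinned counts, 4 with the covariate and 1 without genes near Bub1b. The fat count of 5333 was 3887 to 6495 with 1 library left out, 3784 with the 8 fat libraries fitted alone and 0 with either covariate. Of genes in lists, 153 were called, 41 to 319 with 1 library left out, 237 with DESeq2, 85 with no filter, 269 with Y-linked libraries, 357 without the myofibre-rich libraries and 0 with either covariate. Near Bub1b 41 were called, 18 to 83 with 1 library left out, 64 with DESeq2, 26 with no filter, 76 with Y-linked libraries, 94 without the myofibre-rich libraries, 0 with the covariate and 1 with it in fat alone. Of the named genes past the test, 52 to 106 passed with 1 library left out and 0 with either covariate. The causes were not tested.

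The replicate block by number gave 1510 interaction genes and 8 in muscle. The replicate block by number in muscle alone, chosen after seeing the data, gave 957 interaction genes, 5 in muscle, 75 in lists, 26 near Bub1b and 70 of the named genes past the test. The replicate block by mouse gave 1270 and no single-tissue effects. It takes same-numbered muscle and fat libraries of a genotype as 1 mouse, which no label states and which HL1002P replicate 3 contradicts, with Xist in muscle and Y-linked transcripts in fat.

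With 1 library left out the interaction was -0.79 to 0.17 for Ryr3, -0.17 to 0.18 for Glo1 and -0.031 to 1.78 for Fabp3. It turned sign for Ryr3 without WT muscle replicate 1 (0.02), WT muscle replicate 2 (0.0018), HL1002P fat replicate 3 (0.09) or WT fat replicate 1 (0.17), Glo1 without HL1002P fat replicate 4 (0.18), WT fat replicate 4 (0.06) or both myofibre-rich libraries (0.14), and Fabp3 without WT fat replicate 3 (-0.031), none of which passed in the fit of 16 libraries. With Y-linked libraries Spp1 was -0.0027 and Glo1 0.43. With the covariate in each tissue and in fat alone the values were 0.25 and 0.33 for Colq, -0.99 and -0.99 for Fabp3, 1.65 and 1.55 for Ryr3, 0.072 and 0.15 for Smc4, 0.055 and 0.12 for Rps3, and 0.085 and 0.12 for Clu. In each tissue Prox1 was 0.16 and Esam -0.022, and in fat alone Chst3 was 0.013. Depth limits Tekt1, Cntn2, Gdf5, Igfbp2, Amph, Aldh3a1, Bub1b, Cdkn2a, Igfn1 and Gm14085, with 109 reads or fewer in at least 1 group.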
